A study of Mus musculus with 50 samples.

Results

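The clones described here represent the collapsin response mediator proteins (Dpysl2, Dpysl3, Dpysl4, Dpysl5 and Crmp1) and the stathmins (Stmn1, Stmn2, Stmn3 and Stmn4) in the mouse paraventricular nucleus (PVN) of the hypothalamus. They were chosen by name. All clones of the array named dihydropyrimidinase-like, collapsin response mediator protein or stathmin were taken, which gave 17 of 22824 clones, for 9 genes. 8 clones belong to the Dpysl/Crmp genes and 9 to the stathmins. Dpysl2 has 3 clones (spots 8972, 9842 and 12314), as do Stmn2 (4901, 14770 and 21639) and Stmn3 (1835, 2841 and 6386). Crmp1 (1198 and 16136) and Stmn1 (5934 and 19487) have 2 each. Dpysl3 (16395), Dpysl4 (7958), Dpysl5 (23726) and Stmn4 (8280) have 1. A clone named dihydropyrimidinase (12743) and an EST similar to CRMP-1 (14602) lie just outside this choice of names and were not counted. By RefSeq, Dpysl2 and Stmn4 lie on mouse chromosome 14, Crmp1 and Dpysl5 on chromosome 5, Dpysl3 on 18, Dpysl4 on 7, Stmn1 on 4, Stmn2 on 3 and Stmn3 on 2.

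Both families act on tubulin. CRMP2, the product of Dpysl2, binds tubulin dimers and favours microtubule assembly in the growing axon, and it also lies downstream of semaphorin 3A in growth cone collapse, where the kinases Cdk5 and GSK3 phosphorylate it. Stathmins bind free tubulin dimers and favour the shrinking of microtubules, an action that is switched off by phosphorylation. In the adult brain both families remain expressed in neurons, and several of their members are enriched in growth cones and in axons that are being remodelled.

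The study compared the PVN of C57BL/6J and DBA/2J mice, 2 inbred strains, before and after a single acute stress. Male mice aged 3 to 5 months, housed singly, underwent 5 min of forced swimming and were decapitated 4 h or 8 h later, while non-stressed mice of each strain were decapitated at the same hour of the day. Micropunched tissue of the PVN and its surroundings from 6 animals was pooled for each of the 6 conditions (2 strains, each 4 h after stress, 8 h after stress or non-stressed). Amplified RNA of 2 pools was then labelled with Cy5 and Cy3 and hybridised together on spotted cDNA arrays, with 10 arrays for each of 5 comparisons. The comparisons were DBA/2J over C57BL/6J without stress, and, in C57BL/6J and in DBA/2J, 4 h over non-stressed and 8 h over non-stressed. In 5 of the 10 arrays the first-named pool carried Cy5, and in the other 5 it carried Cy3. The 10 arrays of a comparison are technical replicates of 1 pair of pools. Each error, interval and p-value below therefore compares 2 pools of RNA, and how far single animals differ cannot be read from them. The 4 h and 8 h comparisons of a strain share its non-stressed pool, and the comparison between strains uses both non-stressed pools. In pooled tissue, fewer cells of a type and less RNA per cell cannot be told apart.

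Values are log2 ratios of the normalized intensity of the first-named pool over that of the second. A clone was called when its mean lay at least 0.50 from 0 on the log2 scale and its p-value, from limma with a term for the dye and Benjamini-Hochberg adjustment over all 22824 clones, was under 0.05. Dpysl2 in every comparison, and Stmn1 between the unstressed strains, were of interest because of published results from these same arrays, so their values are a description and carry no p-value. For them, "called" says only that the value passed the same limits as other clones, and is no test. Directions follow the dyes named in the labels. They are opposite to the direction given by the study for Dpysl2 after stress and for Stmn1 between the strains, and equally for Adam10, Glul, Trh and Tcf7l2, so it is not limited to the members. The study also followed other transcripts by quantitative PCR and in situ hybridisation, and these ran in the direction it gives. The array files and labels used here do not settle which direction holds. With the sign turned, each value described here as higher, for members and for all other clones, would be lower by the same factor.

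The clones differed widely in brightness, and not every clone gave a signal. A spot was taken as detected when both dyes exceeded the median of the 1170 empty spots by more than 3 scaled median absolute deviations, which a median of 35.9% (C57BL/6J 8 h) to 53.8% (C57BL/6J 4 h) of all clones did. Dpysl2 8972, Crmp1 1198, Dpysl4 7958, Stmn1 5934, Stmn2 4901 and Stmn2 21639 were detected on all 50 arrays. Dpysl2 12314 and Dpysl5 23726 were detected on 49, Stmn2 14770 on 46, Stmn1 19487 on 44 and Crmp1 16136 on 43. Stmn3 6386 was detected on 38 arrays, Stmn3 1835 on 29 and Dpysl3 16395 on 28. Dpysl2 9842, Stmn3 2841 and Stmn4 8280 were detected on 0 of 50 arrays, so their ratios are not read as fold changes. These ratios are still plotted, and they enter the medians and counts over all members. The array therefore gave no measurement of Stmn4, and measured Dpysl2 through its other 2 clones.

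**Figure D1:**
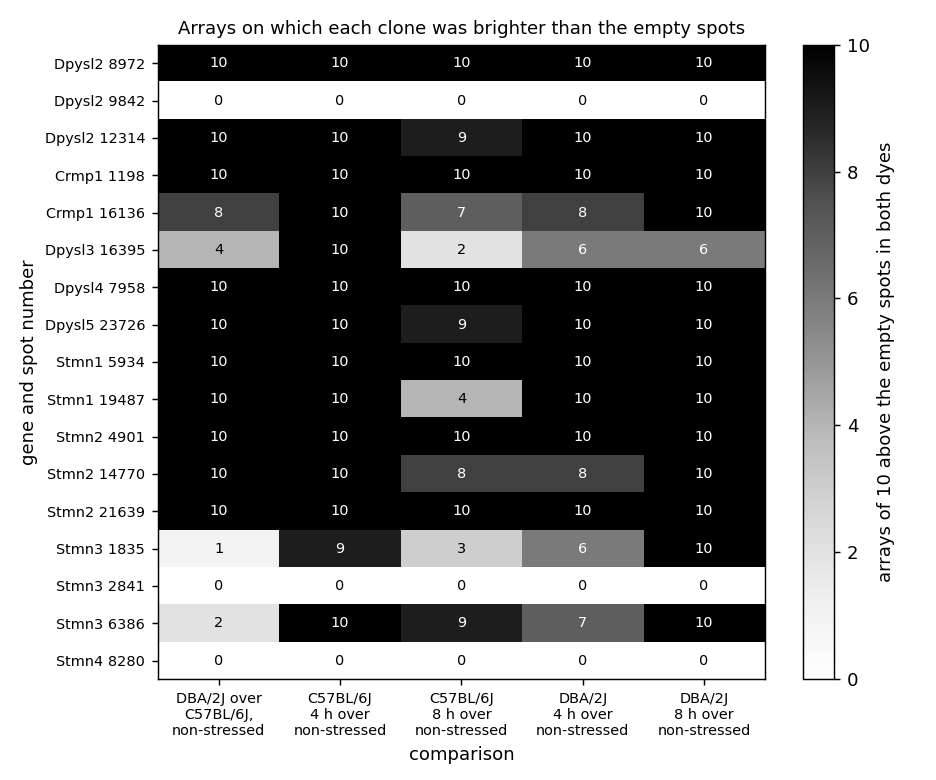
Number of arrays, of 10 in each comparison, on which each of the 17 clones exceeded the empty spots in both dyes; columns are the 5 comparisons and rows the clones, with the gene and spot number. Dpysl2 9842, Stmn3 2841 and Stmn4 8280 stand at 0 in all columns, and Dpysl3 16395 falls to 2 arrays in C57BL/6J 8 h.

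Dpysl2 8972 was lower 4 h after stress in C57BL/6J. Its normalized intensity was 2410 at the lowest, 4640 at the median and 8970 at the highest in the stressed C57BL/6J pool, against 4070, 7500 and 14200 in the non-stressed pool. The ranges of intensity overlap because arrays differ in brightness, but the stressed pool was the dimmer one on 10 of 10 arrays. The log2 ratio lay between -0.92 and -0.57, with a mean of -0.72 ± 0.11 (SD, n = 10 arrays; SE of the fit 0.082) or 0.606-fold. The mean was -0.72 with the stressed pool in Cy5 and -0.72 with it in Cy3. In this comparison 1 of the 17 members was called, and it was this clone; 0.289% of all clones were called.

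The same clone stayed near the non-stressed level at 8 h in C57BL/6J. Its intensity was 2620, 3380 and 5090 (lowest, median, highest) in the stressed pool, against 3010, 3820 and 5790 in the non-stressed pool, and the mean log2 ratio was -0.17 ± 0.18 (SD, n = 10), with 1 of 10 arrays above 0. In DBA/2J the times stood the other way round. At 4 h the mean of 8972 was 0.03 ± 0.34, with 6 of 10 arrays above 0 and intensities of 2160, 4280 and 7200 in stressed against 2330, 3940 and 6680 in non-stressed DBA/2J mice. This mean followed the dye. It was -0.21 with the stressed pool in Cy5, where 1 of 5 arrays was above 0, and 0.26 with it in Cy3, where 5 of 5 were. At 8 h the mean of 8972 was -0.40 ± 0.08, with 0 of 10 arrays above 0 and intensities of 2970, 4090 and 10900 against 4360, 5360 and 14200. This is 0.756-fold and passed neither the size limit nor the p limit of a call. Between the unstressed strains the clone averaged -0.02 ± 0.40, with DBA/2J the brighter pool on 4 of 10 arrays. In order of the ratio, C57BL/6J 4 h was lowest, then DBA/2J 8 h, C57BL/6J 8 h, the unstressed strains and DBA/2J 4 h; the 95% intervals of each pair of neighbours in this order overlapped.

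The second detected clone of the same gene, Dpysl2 12314, gave another pattern. In C57BL/6J it was at the non-stressed level 4 h after stress, with a mean of 0.02 ± 0.22 and 5 of 10 arrays above 0, and intensities of 1420, 3540 and 5160 in the stressed pool against 1630, 3410 and 5170 in the non-stressed pool. At 8 h it was higher in the stressed C57BL/6J pool on 10 of 10 arrays. Its intensity there was 526, 1250 and 1690, against 256, 613 and 954 in the non-stressed pool. The log2 ratio ran between 0.66 and 1.36, with a mean of 0.94 ± 0.21 (SE of the fit 0.111) or 1.92-fold, and stayed at 0.93 over the 9 arrays on which the clone was detected. This was the 1 of 17 members called in C57BL/6J at 8 h, where 0.0832% of all clones were called.

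In DBA/2J, clone 12314 was lower after stress at both times without being called. At 4 h its intensity was 770, 1250 and 1980 in the stressed pool, against 1060, 2090 and 3260 in the non-stressed pool. The mean log2 ratio was -0.66 ± 0.47, and 9 of 10 arrays were below 0. At 8 h the intensities were 1650, 2140 and 3170 in the stressed and 2420, 2960 and 3610 in the non-stressed pool, with a mean of -0.36 ± 0.24 and again 9 of 10 arrays below 0. Between the unstressed strains the ratio followed the dye. It averaged -0.25 with DBA/2J in Cy5, where 1 of 5 arrays was above 0, and 0.69 with DBA/2J in Cy3, where 5 of 5 were, so that the mean of 0.22 ± 0.61 describes neither set.

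**Figure D2:**
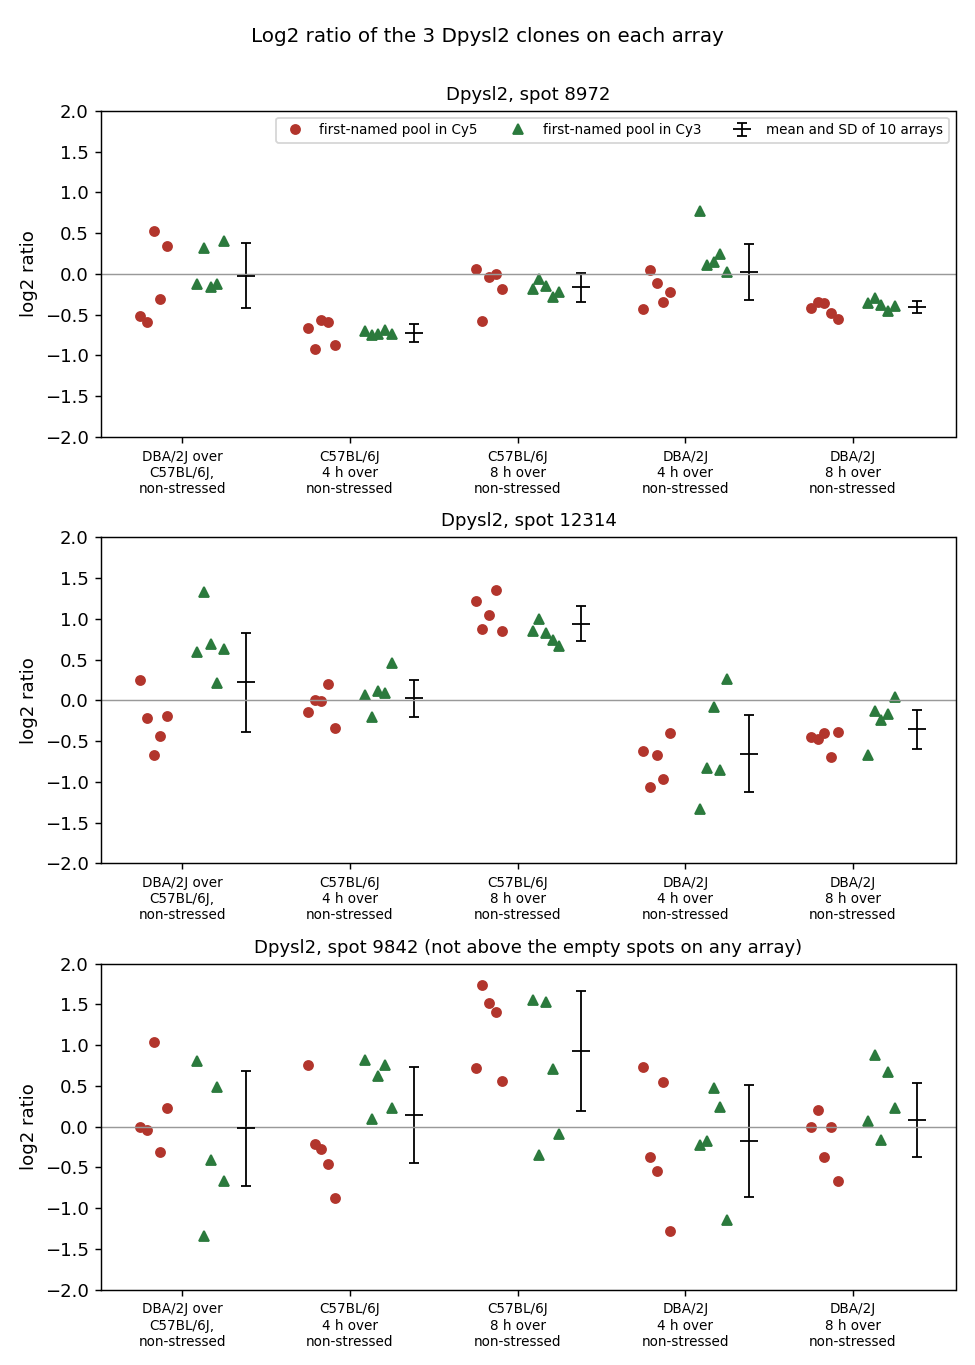
Log2 ratio of the first-named over the second-named pool on each array (vertical axis) for the 3 Dpysl2 clones in the 5 comparisons; circles have the first-named pool in Cy5, triangles in Cy3, and the bar is the mean and SD of 10 arrays. Clone 8972 lies below 0 on all arrays of C57BL/6J 4 h and DBA/2J 8 h, and clone 12314 lies above 0 on all arrays of C57BL/6J 8 h. Clone 9842 was not above the empty spots in both dyes on any array.

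Both detected Dpysl2 clones thus carry the name of 1 gene but did not move together. Within the same arrays, 8972 minus 12314 averaged -0.75 ± 0.21 on the log2 scale in C57BL/6J at 4 h, with 8972 the lower one on all 10 arrays. At 8 h in C57BL/6J the gap was -1.11 ± 0.17, again on all 10 arrays, which corresponds to a 2.15-fold disagreement on the size of the response. In DBA/2J at 4 h it turned to 0.68 ± 0.67, with 8972 the higher one on 9 of 10 arrays. In DBA/2J at 8 h both clones were lower in the stressed pool, and the gap was -0.05 ± 0.24; it was the 1 comparison in which their means differed by less than the SD of the gap, apart from the unstressed strains at -0.24 ± 0.69. Over all 50 arrays the dye-corrected ratios of 8972 and 12314 had a Pearson r of -0.0606, as a description over arrays that share pools. The sign of both was the same on 5 of 10 arrays in C57BL/6J 4 h, on 1 in C57BL/6J 8 h, on 5 in DBA/2J 4 h, on 9 in DBA/2J 8 h and on 4 between the unstressed strains. Clone 9842, never detected, adds no measurement. Which transcript or part of Dpysl2 each clone holds is not given in the files used here.

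**Figure D3:**
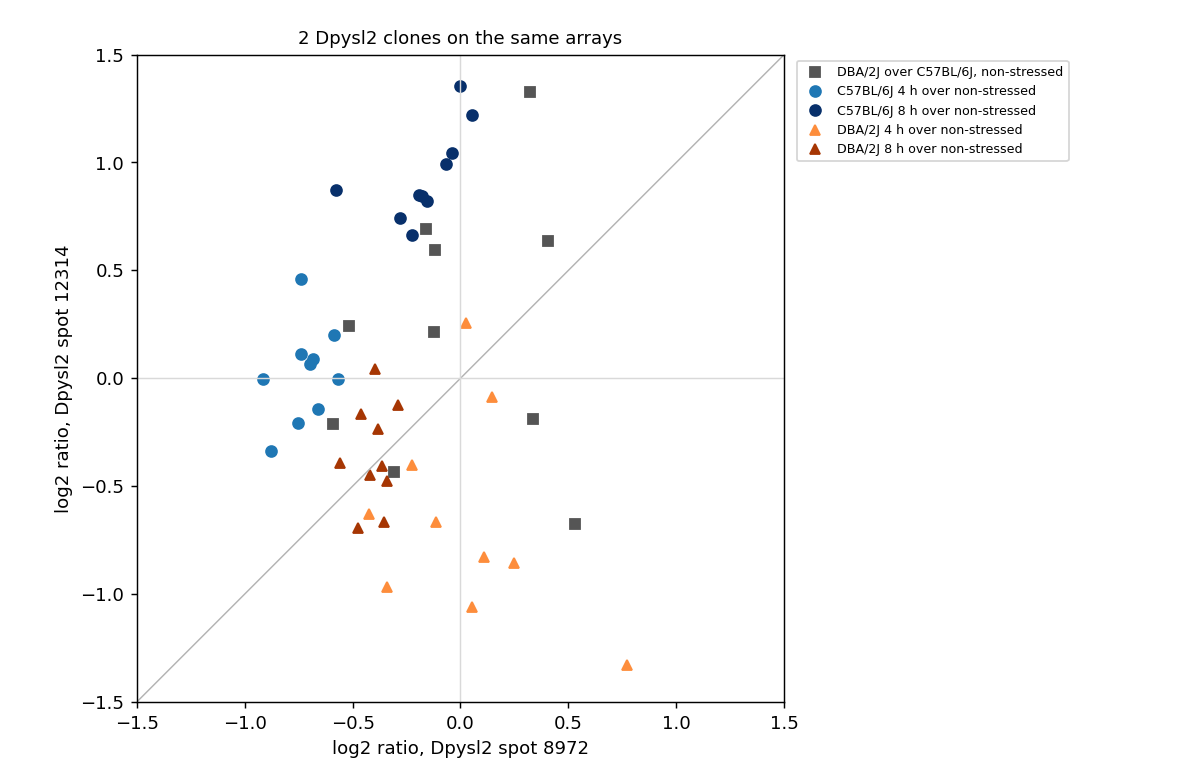
Log2 ratio of Dpysl2 12314 (vertical) against Dpysl2 8972 (horizontal), with 1 point for each of the 50 arrays and a symbol for each comparison; the diagonal marks equal ratios. C57BL/6J 4 h and 8 h lie to the upper left of the diagonal on all arrays, DBA/2J 4 h lies mostly below it and DBA/2J 8 h lies around it, below 0 on the horizontal axis.

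The differences between the strains and between the times were fitted directly, each on 20 arrays. In the 4 h response, DBA/2J minus C57BL/6J was 0.75 (SE 0.134) for clone 8972 and -0.68 (SE 0.185) for clone 12314, which is a difference of opposite sign for the same gene. The first was called and the second was not, and the call was lost with a replicate block and within either dye orientation alone. With the normalized values deposited by the authors both clones passed the limits, at 0.66 for 8972 and -0.81 for 12314. In the 8 h response, DBA/2J minus C57BL/6J was -1.30 (SE 0.128, 95% interval -1.56 to -1.03) for 12314, a call, and -0.24 for 8972. For 8 h minus 4 h in C57BL/6J both detected clones were higher at 8 h, by 0.56 (SE 0.122) for 8972 and by 0.92 (SE 0.131) for 12314, and both were called. The call of 8972 was lost whenever the arrays of any 1 replicate number were left out, and both were lost with a replicate block. For 8 h minus 4 h in DBA/2J, 8972 gave -0.43 and 12314 gave 0.30, neither of them called. Of the 17 members, 2 were called in the strain difference at 4 h (2.34% of all clones), 1 at 8 h (0.6%), 2 in C57BL/6J between times (0.495%) and 0 in DBA/2J between times (1%; by limma, with 4 members at an unadjusted p under 0.05).

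None of the other Dpysl and Crmp genes was called in any comparison or difference by limma on its own 10 or 20 arrays. An unadjusted p under 0.05 was reached by Dpysl3 between the unstressed strains, in DBA/2J at 4 h, in the strain difference at 4 h and between times in DBA/2J, and by Crmp1 16136 between times in C57BL/6J. Crmp1, whose product forms tetramers with CRMP2, was measured by 2 clones whose mean ratios ran between -0.10 and 0.15 for 1198 and between -0.37 and 0.14 for 16136. These clones had the same sign in 1 of the 5 comparisons, C57BL/6J at 4 h, and a Pearson r of -0.227 over the 50 arrays. Dpysl4 7958 (CRMP3) had means between -0.07 and 0.03 after stress, and 0.32 ± 0.44 between the unstressed strains, with DBA/2J higher on 9 of 10 arrays and an adjusted p of 0.343 by limma. Dpysl5 23726 (CRMP5) had means between -0.11 and 0.21 in the 5 comparisons.

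Dpysl3 (CRMP4, which also binds filamentous actin) was below 0 on most arrays in DBA/2J mice at 4 h, less far so on the arrays that detected it. Its mean log2 ratio over all arrays was -0.72 ± 0.76 and 9 of 10 arrays were below 0, with values of -1.86 at the lowest, -0.55 at the median and 0.70 at the highest. The limma adjusted p was 0.245, and 0.0188, a call, when all 50 arrays were fitted together. The clone was detected on 6 of these 10 arrays, and over those 6 the mean was -0.30 ± 0.50. The difference of this response between DBA/2J and C57BL/6J mice was -0.82 (SE 0.269, adjusted p = 0.129). In the other comparisons its means ran between -0.30 and 0.10, and it was detected on 10 arrays in C57BL/6J 4 h, on 2 in C57BL/6J 8 h, on 6 in DBA/2J 8 h and on 4 between the unstressed strains.

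**Figure D4:**
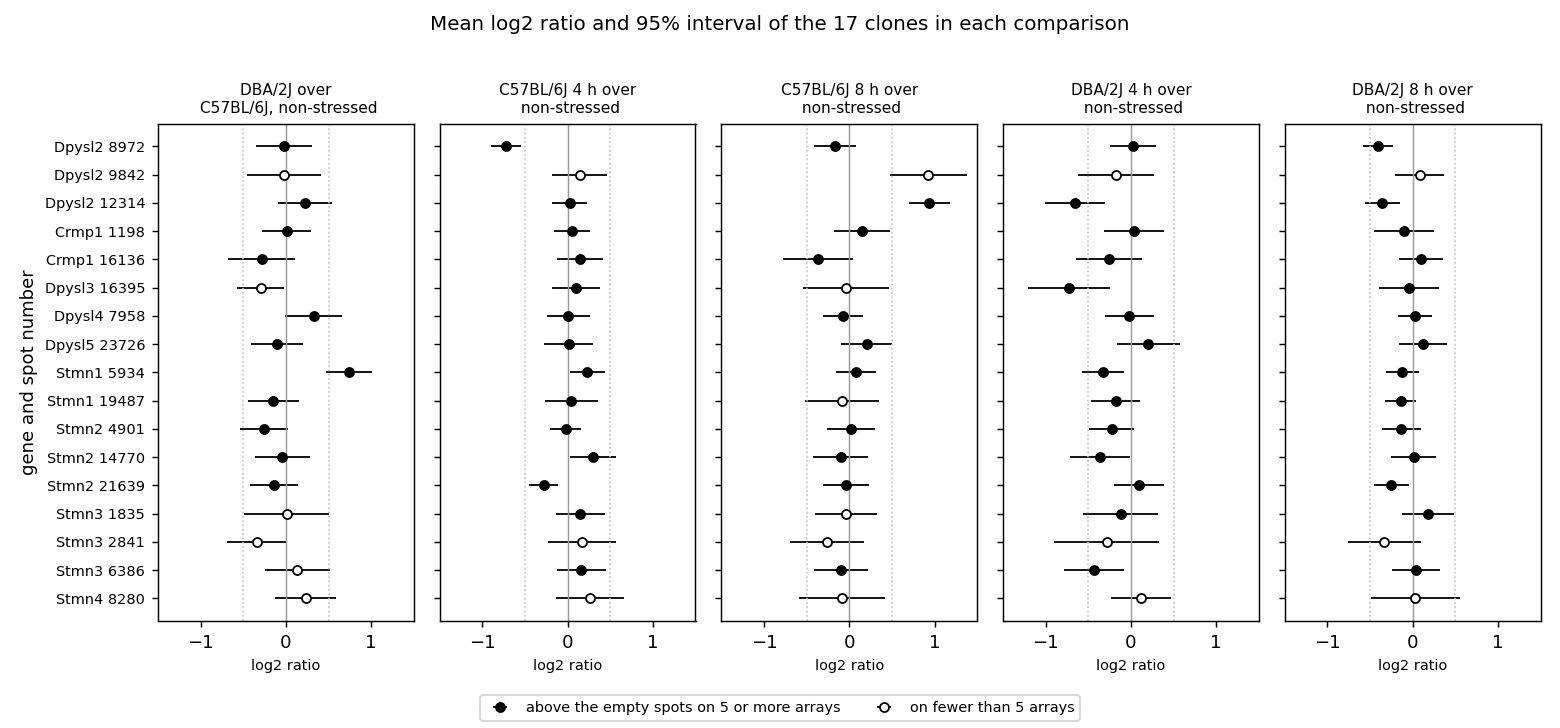
Mean log2 ratio of the 17 clones (rows) in the 5 comparisons (panels) with the 95% interval of the limma fit; filled symbols mark clones detected on 5 or more of the 10 arrays, open symbols those detected on fewer, and dotted lines the limits at 0.50 above and below 0. Outside the limits with a filled symbol are Dpysl2 8972 in C57BL/6J 4 h, Dpysl2 12314 in C57BL/6J 8 h and DBA/2J 4 h, Dpysl3 16395 in DBA/2J 4 h and Stmn1 5934 between the unstressed strains.

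Among the stathmins, clone 5934 of Stmn1 (stathmin, also called oncoprotein 18) was higher in unstressed DBA/2J than in unstressed C57BL/6J mice. Its intensity was 7320, 15300 and 25700 (lowest, median, highest) in the DBA/2J pool, against 4220, 9670 and 16100 in the C57BL/6J pool, and DBA/2J was the brighter pool on 10 of 10 arrays. The log2 ratio lay between 0.45 and 0.98, with a mean of 0.74 ± 0.15 (SE of the fit 0.125) or 1.67-fold, and averaged 0.66 with DBA/2J in Cy5 and 0.83 with DBA/2J in Cy3. When arrays were centred on their median instead of fitted by loess, the mean was 0.48 and the clone was not called. It was the 1 member of 17 called between the unstressed strains, where 3.62% of all clones were called (1.61% higher and 2.02% lower in DBA/2J).

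The second clone of Stmn1, 19487, did not show this difference. Its mean between the unstressed strains was -0.15 ± 0.51, with 3 of 10 arrays above 0, and it averaged 0.25 with DBA/2J in Cy5 and -0.55 with DBA/2J in Cy3. Over the 50 arrays the clones 5934 and 19487 had a Pearson r of 0.0953. After stress, 19487 had means of 0.05 and -0.08 in C57BL/6J (4 h and 8 h) and of -0.18 and -0.14 in DBA/2J (4 h and 8 h).

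After stress, Stmn1 5934 gave 0.23 ± 0.30 at 4 h and 0.08 ± 0.16 at 8 h in C57BL/6J, and -0.33 ± 0.42 at 4 h and -0.12 ± 0.17 at 8 h in DBA/2J. At 4 h in C57BL/6J the value depended on the dye. The log2 ratio lay between 0.22 and 0.93 with the stressed pool in Cy5, with a mean of 0.45. With the stressed pool in Cy3 it lay between -0.06 and 0.12, with a mean of 0.02. At 4 h in DBA/2J the intensities were 7110, 9910 and 16400 in the stressed pool, against 9430, 13900 and 16200 in the non-stressed pool. The arrays of this comparison fell into separate ranges by dye. With the stressed pool in Cy5 the log2 ratio lay between -0.91 and -0.56, with a mean of -0.71, and with the stressed pool in Cy3 between 0.01 and 0.11, with a mean of 0.06. The difference of the 4 h response, DBA/2J minus C57BL/6J, was -0.56 (SE 0.127, 95% interval -0.83 to -0.30, limma adjusted p = 0.0193), a call. Fitted separately by dye, it was -1.17 where Cy5 marked the stressed pools and 0.04 where Cy3 did, neither of which passed. The adjusted p over the alternatives of this difference ran between 0.000455 and 0.955, and the call was lost without replicate 1, 4, 6, 9 or 10 (adjusted p between 0.0529 and 0.0614). With the arrays paired by replicate number the adjusted p was 0.123. With the normalized values deposited by the authors the difference was -0.46, short of the size needed for a call. The non-stressed pools of this difference are those of the comparison between strains, for which Stmn1 was of interest. The difference and its adjusted p are therefore no independent test. At 8 h the difference was -0.20 (adjusted p = 0.607).

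**Figure D5:**
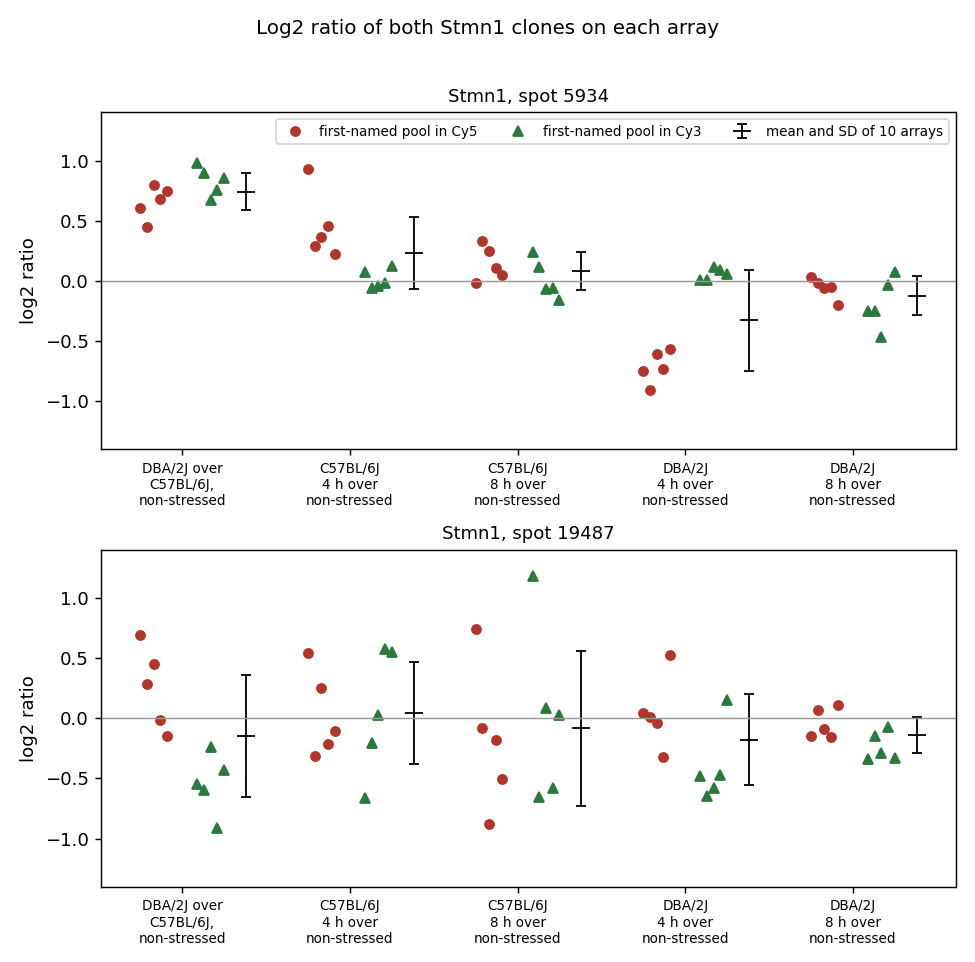
Log2 ratio of the first-named over the second-named pool on each array (vertical axis) for both Stmn1 clones in the 5 comparisons; circles have the first-named pool in Cy5, triangles in Cy3, and the bar is the mean and SD of 10 arrays. Clone 5934 lies above 0 on all arrays of the unstressed strains and splits by dye in C57BL/6J 4 h and DBA/2J 4 h, and clone 19487 spreads around 0.

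Stmn2 (SCG10, a stathmin of neuronal growth cones) was called in no comparison or difference by limma on its own 10 or 20 arrays, although 14770 and 21639 reached an unadjusted p under 0.05 in some of them. Clone 21639 was lower in stressed C57BL/6J mice at 4 h on 10 of 10 arrays, with a log2 ratio of -0.58 at the lowest, -0.27 at the median and -0.03 at the highest, a mean of -0.28 ± 0.21 and an adjusted p of 0.167. It averaged -0.47 with the stressed pool in Cy5 and -0.09 with it in Cy3. At 8 h in DBA/2J it was -0.25 ± 0.19, with 9 of 10 arrays below 0. Clone 14770 went the other way at 4 h in C57BL/6J, with 0.30 ± 0.34, and gave -0.37 ± 0.56 in DBA/2J at 4 h; its strain difference at 4 h was -0.67 (SE 0.202, adjusted p = 0.0955, and 0.036, a call, with all 50 arrays in 1 fit). Over the 8 arrays of DBA/2J 4 h that detected 14770 its mean was -0.14. Clone 4901 had means between -0.26 and 0.02. All 3 clones were below 0 between the unstressed strains, at -0.26, -0.04 and -0.14, which was the 1 comparison in which they shared a sign.

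Stmn3 (SCLIP) was likewise called nowhere by limma, with 6386 at an unadjusted p under 0.05 in DBA/2J at 4 h, in the strain difference at 4 h and between times in DBA/2J. Its clones 1835 and 6386 had means between -0.12 and 0.18 and between -0.43 and 0.16. The lowest of these, -0.43 ± 0.52 for 6386 in DBA/2J at 4 h, was seen on arrays of which 7 of 10 showed the clone above the empty spots, and had an adjusted p of 0.337. Between the unstressed strains 6386 averaged 0.14 over all arrays and -0.77 over the 2 that detected it. For clones of 1 gene, the highest Pearson r over the 50 arrays was 0.329, between Dpysl2 12314 and the undetected Dpysl2 9842, and the values for Stmn2 and Stmn3 pairs ran between -0.21 and 0.192.

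Over the 17 members, the median log2 ratio was -0.02 between the unstressed strains, 0.10 and -0.04 in C57BL/6J (4 h and 8 h) and -0.18 and -0.04 in DBA/2J (4 h and 8 h), while the median of all clones stayed between -0.01 and 0.01. The SD of the members' median over arrays was 0.18, 0.04 and 0.14, and 0.17 and 0.17, in the same order. In DBA/2J 0 of 17 members were called by limma at 4 h (0.153% of all clones called; 5 members at an unadjusted p under 0.05) and 0 at 8 h (0.158% of all clones; 3 members at an unadjusted p under 0.05). The study's methods name a t-test but no p limit, so 0.05 was assumed here, beside the fold limit. By this methods' t-test with an unadjusted p the counts were 2 at 4 h and 0 at 8 h, and after adjustment 0 and 0. Over all clones that test called 711 and 562, and after adjustment 84 and 89. The study selected genes by fold and Z-score. With its limits, and the mean over the SD of the arrays as Z-score, 173 and 117 of all clones passed, with no member among them. The limma count over all clones in DBA/2J at 8 h, 36 as reported, was 1 whichever replicate was left out. It was 12 to 17 against 35 in DBA/2J at 4 h, and 16 to 42 against 66 in C57BL/6J at 4 h. The mean had the same sign in both dye orientations for 7 of 17 members between the unstressed strains, for 11 and 7 in C57BL/6J (4 h and 8 h) and for 9 and 8 in DBA/2J (4 h and 8 h); over all clones these shares were 52%, 49.2%, 42.3%, 45.5% and 50.9%.

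By similarity of the dye-corrected ratios over the 50 arrays, among 9378 clones with a gene name, those most like Dpysl2 8972 included N-acetylglucosamine kinase (r = 0.726), zinc finger protein 265 (0.629), the gamma form of the NSF attachment protein (0.628) and ELAV-like 2, a neuronal RNA-binding protein (0.62). The 99th percentile of r was 0.469. At 4 h in C57BL/6J, where 8972 had -0.72, these 4 stood at -0.67, -0.96, -0.56 and -0.43 in the order named. At 8 h in DBA/2J, where 8972 had -0.40, they stood at -0.29, 0.17, -0.34 and -0.03, so the likeness did not extend to every comparison. The clones most like Dpysl2 12314 were others. They were both clones of the metalloprotease ADAM10 (0.759 and 0.746), N-myc downstream regulated 4 (0.73), reticulon 1 (0.727) and heat shock protein 1 (0.722), against a 99th percentile of 0.459. In the labelled direction, the ADAM10 clones stood at 1.23 and 1.21 in C57BL/6J at 8 h and at -0.55 and -0.66 in DBA/2J at 8 h. For ADAM10 the study gives the opposite direction.

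The genes that surround both families were followed as lists of clones chosen by gene. Between the unstressed strains, tubulins and other microtubule proteins had 5 of 66 clones higher and 0 lower in DBA/2J, with a median of 0.11 over the list, beside 1.61% of all clones higher and 2.02% lower. The called clones included Map1b, which stabilises microtubules in axons (1.12). Over all comparisons this Map1b clone was detected on only 10 arrays, so its ratio is read with caution. Also called were the kinesin Kif5b (0.82 for its highest clone, 3 clones called) and the tubulin Tuba1c (0.61). Growth cone genes had 3 of 47 clones higher, all of Basp1 (0.53 to 0.80), and 2 lower, the Nogo receptor Rtn4r (-0.79) and the actin regulator Enah (-0.74). Of 55 clones of the semaphorin pathway and of the kinases that act on CRMPs, 1 was lower, Sema4d (-0.71).

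After stress these lists held few calls. In C57BL/6J at 4 h, Sema6d (-0.56) and Rtn4 (-0.70), which encodes Nogo, were lower, and 0 of 66 microtubule clones were called by limma (13 at an unadjusted p under 0.05). In the remaining stress comparisons 0 clones of the semaphorin, growth cone and microtubule lists were called by limma, with 5, 7 and 10 of them at an unadjusted p under 0.05 in C57BL/6J at 8 h, 5, 8 and 11 in DBA/2J at 4 h, and 4, 6 and 9 in DBA/2J at 8 h. In the strain difference at 4 h (DBA/2J minus C57BL/6J), 4 of 66 microtubule clones were lower, among them both called clones of Tuba1b (-0.79 and -0.64), and 0 higher, beside 1.19% of all clones lower and 1.16% higher. There, 2 semaphorin pathway clones were higher, Sema6d (0.83) and the semaphorin receptor Nrp1 (0.72). Over all comparisons this Nrp1 clone was detected on only 15 arrays, so its value is read with caution. In the same difference, growth cone genes had 3 clones higher, 2 of them of Cntn1 (0.81 and 0.73). They had 1 clone lower, the neuronal intermediate filament Ina (-0.96). For 8 h minus 4 h in C57BL/6J, 3 of 47 growth cone clones were higher, Rtn4 (0.79) and 2 of Cntn1 (0.60 and 0.59), beside 0.381% of all clones. For 8 h minus 4 h in DBA/2J, 2 growth cone clones were lower, Cntn1 (-0.84) and Rtn4r (-0.68), beside 0.443% of all clones, and 2 of 66 microtubule clones were higher, Kif5b (0.61) and Map4 (0.58), beside 0.561%.

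Markers of tissue and cell types moved in some of the same comparisons. The pools expressed Trh (detected on 47 arrays) and Avp (34 arrays), peptides of PVN neurons, while the clone of Oxt, another defining PVN peptide, was detected on 0 of 50. Between the unstressed strains, where Stmn1 5934 was higher in DBA/2J, 7 of 36 oligodendrocyte and myelin clones were higher and 2 lower, 4 of 31 astrocyte clones, all of Glul, were higher, and 2 of 5 blood clones, both of Hbb-b1, were higher, beside 1.61% of all clones higher and 2.02% lower. For Glul the study gives the opposite direction. The summed intensity of the detected astrocyte clones was 78700 to 130000 in DBA/2J against 59900 to 93600 in C57BL/6J (higher on 10 of 10 arrays), and that of the oligodendrocyte clones was 52500 to 81700 against 65200 to 123000 (higher on 0 of 10). Of 37 neuron clones 1 was higher and 1 lower; their sum was 94800 to 140000 in DBA/2J and 78300 to 160000 in C57BL/6J, and Gad2 and Syt1 were detected on no array. Of the thalamus list, Tcf7l2 was higher (0.67), and the sum of its detected clones was 40500 to 65700 in DBA/2J and 29100 to 63700 in C57BL/6J (higher on 10 of 10). Of the 8 PVN clones, Resp18 was higher (0.90) and Scg2 lower (-0.81). In DBA/2J at 4 h, where Dpysl2 12314 stood at -0.66, Trh stood at -0.75, a call, and the PVN sum was higher in the stressed pool on 1 of 10 arrays. In DBA/2J at 8 h, where both detected Dpysl2 clones were below 0, Tcf7l2 stood at -0.52, a call. It was the 1 of 10 thalamus clones called there, and the median of that list was -0.20. The sum of the detected thalamus clones was nevertheless higher in the stressed pool on 7 of 10 arrays. The oligodendrocyte sum was higher in the stressed pool on 0 of 10 arrays, with 0 of 36 clones called by limma (7 at an unadjusted p under 0.05). At 8 h the Snap25 clone 16747, a marker of neurons, stood at 0.89 in C57BL/6J and at -0.56 in DBA/2J, both called, where Dpysl2 12314 stood at 0.94 and -0.36. It was the 1 of 37 neuron clones called in either comparison, and the other 4 Snap25 clones detected on all 50 arrays had means between -0.32 and 0.17 in C57BL/6J and between -0.26 and -0.20 in DBA/2J. The median of the neuron list in C57BL/6J at 8 h was -0.09. The summed intensity of the detected neuron clones in C57BL/6J at 8 h was 54600 to 86200 in the stressed pool and 64100 to 101000 in the non-stressed pool, higher in the stressed pool on 3 of 10 arrays. In C57BL/6J at 4 h, where Dpysl2 8972 was lower, the neuron sum was 132000 to 208000 in the stressed pool and 125000 to 211000 in the non-stressed pool, and 0 of 37 neuron clones were called by limma (9 at an unadjusted p under 0.05). There Resp18 stood at 0.52, a call, and the PVN sum was higher in the stressed pool on 10 of 10 arrays. In the strain difference at 4 h, Stmn1 5934 stood at -0.56 and Dpysl2 8972 at 0.75. There 4 of 37 neuron clones were lower, Syp (-1.43), Syn1 (-0.90), Thy1 (-0.89) and Eno2 (-0.70), and 0 higher. Of 31 astrocyte clones 3 were lower and 0 higher. Of 8 PVN clones 2 were lower, Trh (-1.08) and Resp18 (-0.55), and 0 higher. Of all clones 1.19% were lower and 1.16% higher. The part of these markers in the values of Dpysl2 and Stmn1 was not tested.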

How the data were processed

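PVN RNA was measured on 50 spotted cDNA arrays of 24192 spots (22824 clones). Per the labels and the study's methods, 6 animals were pooled per condition, RNA was amplified in 2 rounds, and spots were quantified with a fixed circle. The deposited scanner files hold an intensity and a background per spot and dye on a linear scale, not normalized. The authors also deposited a normalized table, whose values run in the labelled direction on all 50 arrays (r between 0.818 and 0.965) with array medians near 0, and were taken as log2 ratios; it covers 13 of the 17 members and served as an alternative. Dyes were assigned from the image names, and 4 arrays have Cy3 in channel 1.

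Here, intensities were background-corrected (normexp, offset 50) and loess-normalized within arrays, and tested with limma 3.58.1 in R 4.3.3 on 10 arrays per comparison with a dye term. Differences between comparisons used 20 arrays, with a mean and a dye term for each. The fits were tested on simulated data with independent normal errors and the same small number of changed clones in each comparison. The shares below hold for these settings, which may differ from the real arrays. Over the 5 comparisons, a true log2 change of 0.5 was called in 8% to 14% of changed clones, and 0.75 in 30% to 50%. A change of 1 was called in 58% to 74%, and 1.5 in 86% to 96%. A clone that was not called may therefore still differ. Intensities carry no counts, so the number of arrays limits the technical precision. How far single animals differ stays unknown with any number of arrays, as each comparison holds 1 pair of pools.

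The members, lists and comparisons were chosen with earlier results of these data known. Named were all members, called clones of each list by size, and the 5 clones most like the brightest Dpysl2 clone, of which 1 is not reported here; no table of symbols came with the array, so clones with a gene name were ranked. The detection limit was set after seeing that the empty spots at position 21 of the 48 print blocks exceeded it on 76.4% of occasions, which had raised the limit first planned. The alternatives were other background, normalization, filter, test, file day, array and replicate choices. Columns of the scanner files other than intensity and background were not used.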

Additional observations from a re-analysis of the deposited data

Results flagged for a closer look

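In 5 of the 85 sets of 10 arrays (17 clones in 5 comparisons), 1 array stood apart from the other 9 by more than Dixon's 95% limit; chance gives about 1 in 20. Dpysl4 7958 was 1.409 on replicate 7 between the unstressed strains (others -0.29 to 0.53). Crmp1 1198 was -0.515 on replicate 3 at 4 h in C57BL/6J (others -0.13 to 0.30). Stmn1 5934 was 0.928 on replicate 1 at 4 h in C57BL/6J (others -0.06 to 0.45). Dpysl2 8972 was -0.577 on replicate 2 at 8 h in C57BL/6J (others -0.28 to 0.05). Stmn3 2841, a clone never detected in both dyes, was 2.25 on replicate 4 at 4 h in DBA/2J (others -1.31 to 0.37).

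In 5 cases the fitted difference of a clone's response between strains or times passed the limits of a call. For the 4 of them that are Dpysl2 clones, which were of interest because of results from these arrays, this is a description and no test. The Stmn1 5934 difference shares its non-stressed pools with the comparison between strains, for which Stmn1 was of interest. It is therefore no independent test. In the 4 h response, DBA/2J minus C57BL/6J was 0.747 for Dpysl2 8972 and -0.562 for Stmn1 5934. In the 8 h response it was -1.3 for Dpysl2 12314. For 8 h minus 4 h in C57BL/6J it was 0.556 for Dpysl2 8972 and 0.917 for Dpysl2 12314. The explanations of these differences were not tested.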

How the results depend on the processing

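Counts of called members changed as follows. Between the unstressed strains the count of 1 became 0 under median centring. Within either dye orientation alone, and with each orientation averaged to 1 value, it became 0 there and, likewise, 0 in C57BL/6J at 4 h and 0 at 8 h; these settings leave 5 arrays or 2 values. In C57BL/6J at 8 h it was 2 by the methods' t-test unadjusted and 2 with all 50 arrays in 1 fit, both adding the undetected Dpysl2 9842. In DBA/2J at 4 h the count of 0 became 1 (Dpysl2 12314) with dim clones left out by the limit first planned, 1 by the limit added after seeing the data, 2 by the methods' t-test unadjusted and 2 with all 50 arrays, the last 2 adding Dpysl3; at 8 h it became 1 under median centring. The strain difference at 4 h had 2, became 0 with a replicate block, 4 with all 50 arrays (adding Dpysl2 12314 and Stmn2 14770), 0 on the Cy5 arrays alone and 0 on the Cy3 arrays alone (named by the dye of the stressed pool), and 1 to 2 without single replicates. With the authors' values the count at 4 h stayed at 2, but Dpysl2 12314 was called in place of Stmn1 5934. The strain difference at 8 h had 1 and became 0 on the Cy3 arrays alone. For 8 h minus 4 h in C57BL/6J the count of 2 became 0 with a replicate block, 1 with the authors' values, 0 on the Cy5 or 0 on the Cy3 arrays alone, and 1 without any single replicate. The Stmn1 5934 strain difference at 4 h reversed to 0.0413 on the Cy3 arrays alone. The mean of the 3 Dpysl2 clones was -0.18 (C57BL/6J 4 h), 0.57 (C57BL/6J 8 h) and -0.27 (DBA/2J 4 h), and the brightest clone alone gave -0.72, -0.17 and 0.025. That mean includes the undetected clone 9842, and over the 2 detected clones it was -0.35, 0.39 and -0.32. The causes were not tested beyond the smaller number of arrays or clones these settings use. Equal replicate numbers did not pair arrays (r of their deviations -0.0164 to 0.0215, 0 of 10 pairs over 0.1 in each difference); the replicate block changed no other call of members. The files' days gave Stmn1 5934 0.74 and 0.76 between the unstressed strains and Dpysl2 12314 1.12 and 0.82 in C57BL/6J at 8 h. Clones within the empty spots' range set the limit of what could be measured. Counts over all clones moved more, mostly up by the methods' t-test unadjusted and down with 1 dye orientation alone. Across the alternatives they ran from 35 to 1537 between the unstressed strains (827 as reported), from 0 to 446 and 1 to 550 in C57BL/6J at 4 h and 8 h (66 and 19), and from 0 to 711 and 0 to 562 in DBA/2J at 4 h and 8 h (35 and 36). For the strain differences they ran from 0 to 653 at 4 h (535) and 5 to 216 at 8 h (137), and for 8 h minus 4 h from 1 to 180 in C57BL/6J (113) and 0 to 373 in DBA/2J (229).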
